A study of Homo sapiens with 20 samples.

Results

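The genes described here encode 10 transcription factors that steer the T cell lineage: TCF7, LEF1, BCL11B, GATA3, TOX, RUNX1, RUNX3, IKZF1, ETS1 and SATB1. They were taken by name, and a probe set, the array feature that reports 1 transcript target, was assigned to a gene through the annotation of the Affymetrix U133 Plus 2.0 array. Of the 10 genes, 8 had probe sets of their own, 29 in all among the 54675 on the array, which name 19775 genes. RUNX1 was covered by 13 probe sets that the annotation also gives to LOC101928269 and LOC100506403, and these are described apart from the others. TCF7 was not analysed here. A level filter (a log2 intensity of at least 5 on at least 2 arrays) was passed by 25 of the 29 probe sets. The 4 below it were 3 of the 9 IKZF1 probe sets and 1 of the 3 SATB1 probe sets.

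Transcript levels were measured on 20 arrays from 5 established human lines of T-ALL, the T cell form of acute lymphoblastic leukaemia: CEM (labelled JCRB0033), DND41 (ACC525), HPB-ALL (ACC483), KOPT-K and T-ALL1 (labelled JCRB0086, TALL-1). Cells of each line were kept for 16 h with a control peptide or with the NBD peptide, which copies the part of the IkB kinase subunits that binds NEMO (IKKγ) and so blocks canonical NF-kB signalling, and each of these 10 groups had 2 arrays. The comparison of interest is NBD minus control within a line. No group was left without peptide, and each line is a single leukaemia culture. No label says that the arrays of a group stem from separate cultures, and the p-values then reflect the spread among these arrays only, which may be technical. The unit of the peptide dose is not the same in all labels, and no result here rests on the dose.

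T cell development begins when a blood progenitor receives Notch signals in the thymus. TCF7 and GATA3 are induced early, and BCL11B then closes the choice of other lineages. LEF1 and TCF7 are related HMG-box proteins that act with beta-catenin, RUNX proteins, ETS1 and Ikaros (IKZF1) bind the control regions of T cell receptor and CD4 or CD8 genes, and SATB1 and TOX shape chromatin and lineage choice in thymocytes. Several of these genes are mutated or rearranged in T-ALL, where BCL11B, LEF1, GATA3, RUNX1 and IKZF1 can carry loss-of-function lesions. NF-kB is a further factor of thymocyte survival, and T-ALL cells often hold it active.

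Levels are given as the log2 of the deposited intensity, and each gene is represented by the probe set with the highest mean. The values fall into 2 sets that differ in their number of decimals and in their mean intensity per array, CEM, DND41 and HPB-ALL (341 to 347.7) and KOPT-K and T-ALL1 (386.9 to 396.1), so levels were tested only between lines of 1 set. The 10 T cell marker genes passed the filter, with a summed intensity per array of 13600 to 34500 on control arrays and 10700 to 29500 on NBD arrays. The other markers had lower sums over all arrays. They were 138 to 212 for myeloid cells, 149 to 201 for erythroid cells and megakaryocytes and 335 to 395 for fibroblasts and epithelium. Natural killer markers summed to 168 to 727 and B cell markers to 200 to 3670, the last with CD79A at up to 11.46 and EBF1 at up to 9.21 in a group. These lists differ in length, and the ranges pool both sets of arrays. By correlation, the nearest neighbour of each of the 20 arrays was an array of the same line, and for 16 it was the group's other array. The 2 control arrays of T-ALL1 differed most from each other (r = 0.987, against 0.994 to 0.997 in the other groups). Their 3' to 5' difference of the actin control probe sets, a measure that rises with RNA degradation, was 3.16 and 2.05 on the log2 scale, against 0.726 to 1.81 on the other 18 arrays.

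**Figure D1:**
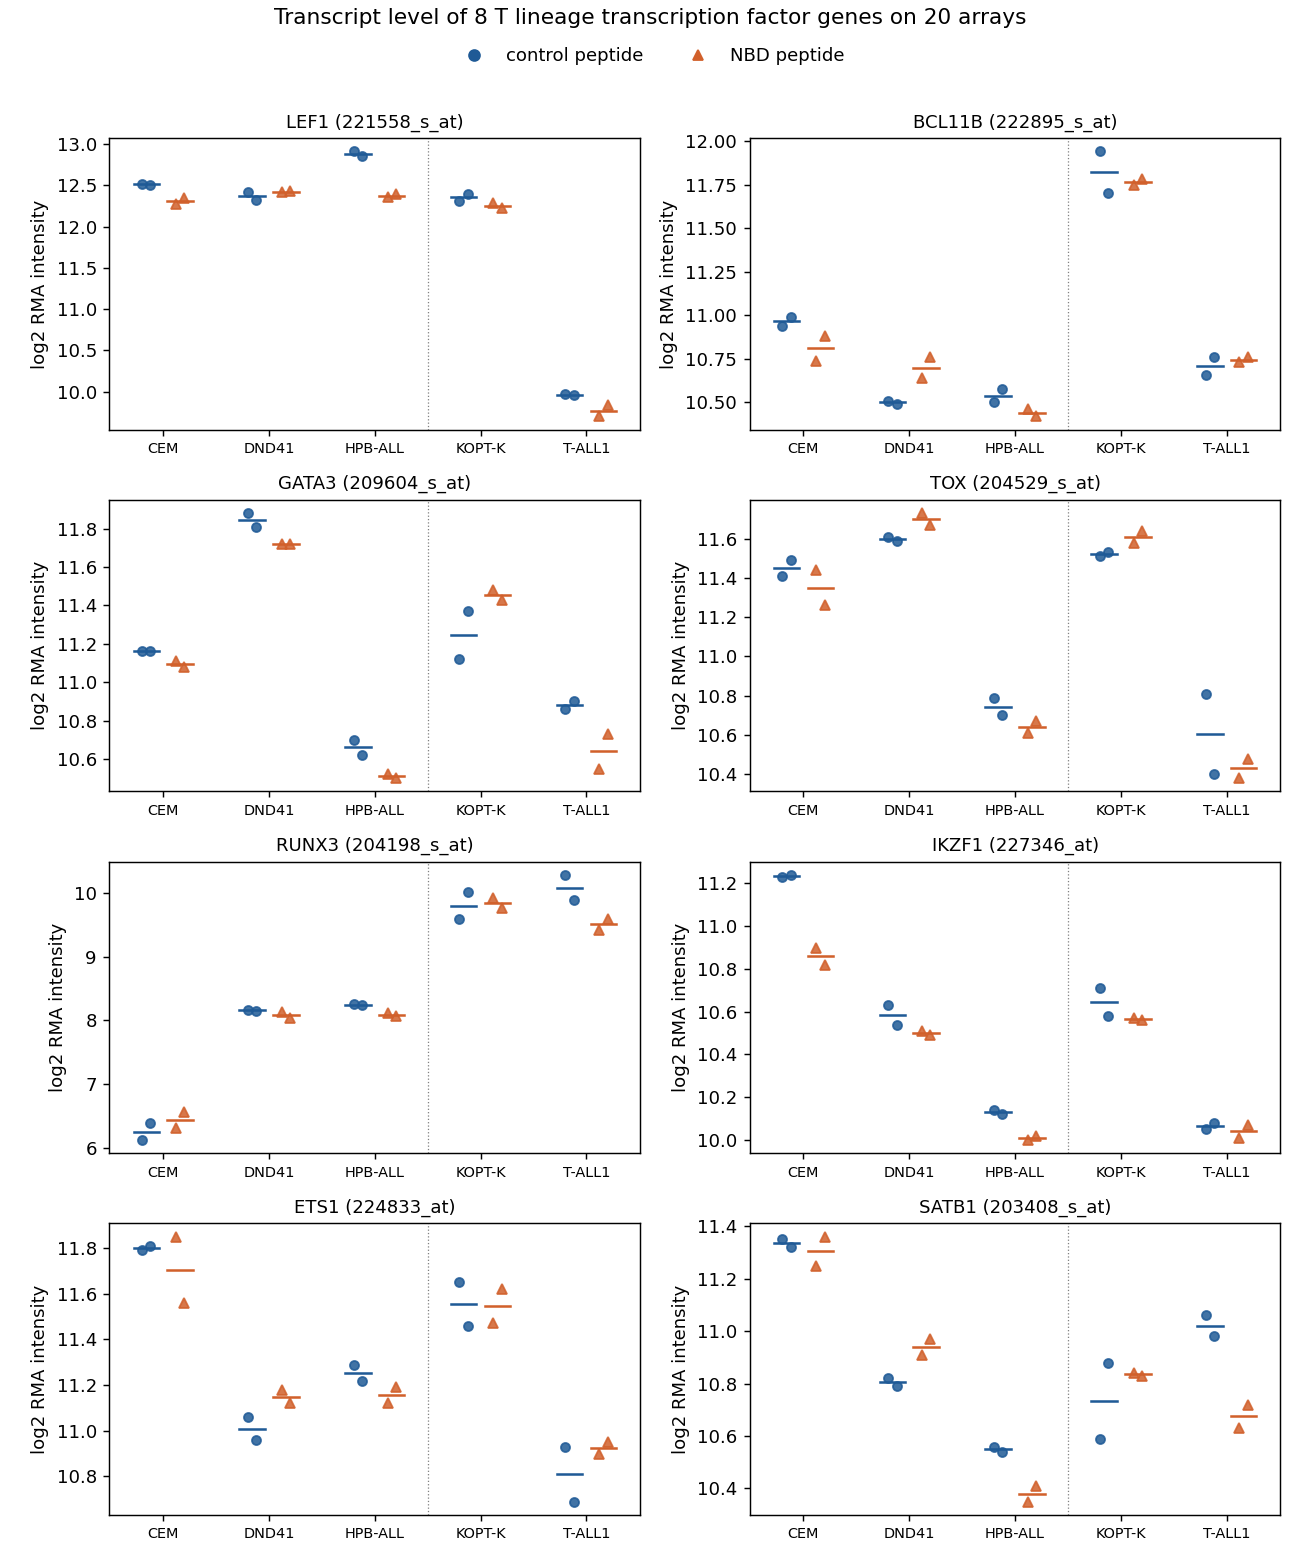
Log2 RMA intensity (y axis) of the representative probe set of 8 genes in the 5 lines (x axis). Circles are control arrays, triangles are NBD arrays, short lines are group means, and the dotted line parts the 2 sets of arrays whose levels were not tested against each other. LEF1 was near 9.97 in T-ALL1 control cells and 12.36 to 12.88 in the other lines, and RUNX3 was lowest in CEM.

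The first question was how the lines differ in these factors before the inhibitor is considered. All 8 genes were well above the filter in most groups, and no single order of the lines held for all of them. In limma's moderated test on the control arrays, with Benjamini-Hochberg adjustment over 26260 probe sets, 6 of the 8 differed between CEM and DND41, 8 between CEM and HPB-ALL, 5 between DND41 and HPB-ALL and 7 between T-ALL1 and KOPT-K. Of all probe sets tested, 36.6%, 43.9%, 42.6% and 50.8% passed in the same comparisons. Of the 25 member probe sets, 14 were higher and 3 lower in CEM than in HPB-ALL, beside 22.7% and 21.2% of all probe sets. In T-ALL1, 1 was higher and 16 lower than in KOPT-K, beside 27.4% and 23.4%. The median difference over the 25 was 0.46 and -0.44 in these comparisons, beside -0.01 over all probe sets in each. The T-ALL1 control arrays had actin 3' to 5' differences of 3.16 and 2.05, those of KOPT-K 0.739 and 1.14. The parts of line and RNA quality in T-ALL1 minus KOPT-K were not told apart. Over 30 variants of the processing, 5 to 8 of the 8 genes were called in that comparison.

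LEF1, the partner of beta-catenin, showed the widest gap between a pair of lines. Its control arrays read 9.97 and 9.96 in T-ALL1 and 12.31 and 12.40 in KOPT-K. The ranges lie far apart, and T-ALL1 was lower by a factor of 5.24 (log2 difference -2.39 ± 0.07 SE, limma adjusted p = 3.6e-12). Among the other 3 lines HPB-ALL was highest at 12.91 and 12.86, followed by CEM at 12.52 and 12.50 and DND41 at 12.42 and 12.32. HPB-ALL exceeded both (CEM minus HPB-ALL -0.38 ± 0.07, DND41 minus HPB-ALL -0.52 ± 0.07, limma adjusted p = 0.000706 and 4.52e-05). CEM and DND41 could not be told apart at this spread (0.14 ± 0.07, limma adjusted p = 0.158). The second LEF1 probe set, 210948_s_at, gave the same low T-ALL1 level (T-ALL1 minus KOPT-K -2.79 ± 0.18), while the third, 221557_s_at, lay between 5.80 and 6.43 in all groups and passed no test between lines.

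RUNX3, which silences CD4 in the CD8 branch of T cells, was the other member with a gap of several fold. Its control arrays read 6.13 and 6.39 in CEM, 8.17 and 8.15 in DND41 and 8.26 and 8.24 in HPB-ALL. CEM was the lowest with no overlap (CEM minus DND41 -1.90 ± 0.15, CEM minus HPB-ALL -2.0 ± 0.15, limma adjusted p = 1.9e-07 and 1.01e-07), a gap of 3.73-fold and 3.99-fold. DND41 and HPB-ALL did not differ beyond their spread (-0.10 ± 0.15, limma adjusted p = 0.662). T-ALL1 (10.28 and 9.88) and KOPT-K (9.59 and 10.01) overlapped (0.28 ± 0.15, limma adjusted p = 0.147). The probe set 204197_s_at gave the same picture, with CEM differences of -1.92 and -2.03, whereas 234928_x_at showed no difference past the threshold in any of the 4 comparisons.

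GATA3, the zinc finger factor needed from the earliest T cell stage on, was highest in DND41. Its control arrays read 11.88 and 11.81 in DND41, 11.16 on both CEM arrays, and 10.70 and 10.62 in HPB-ALL. All 3 steps of this order passed limma's test (DND41 minus HPB-ALL 1.18 ± 0.09, CEM minus DND41 -0.68 ± 0.09, CEM minus HPB-ALL 0.50 ± 0.09, limma adjusted p from 7.08e-08 to 0.000317). The other GATA3 probe sets, 209602_s_at and 209603_at, followed the same order, with DND41 above HPB-ALL by 1.27 and 1.29. T-ALL1 lay below KOPT-K (-0.36 ± 0.09, limma adjusted p = 0.00306).

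TOX, an HMG-box protein of CD4 lineage development, was lowest in HPB-ALL within its set of lines and lower in T-ALL1 than in KOPT-K. Control arrays read 11.41 and 11.49 in CEM, 11.61 and 11.59 in DND41, and 10.79 and 10.70 in HPB-ALL. CEM and DND41 exceeded HPB-ALL by 0.71 ± 0.11 and 0.86 ± 0.11 (limma adjusted p = 0.000122 and 2.02e-05), and CEM did not differ from DND41 beyond the spread (-0.15 ± 0.11, limma adjusted p = 0.326). T-ALL1 (10.81 and 10.40) lay below KOPT-K (11.51 and 11.53) without overlap (-0.92 ± 0.11, limma adjusted p = 8.85e-06). The second TOX probe set, 204530_s_at, gave another picture for these pairs. On it CEM was lower than DND41 (-0.43 ± 0.11, limma adjusted p = 0.00736), T-ALL1 and KOPT-K overlapped (-0.19 ± 0.11, limma adjusted p = 0.186), CEM minus HPB-ALL was 0.23 (0.114) and DND41 again exceeded HPB-ALL (0.66, 0.000234).

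BCL11B, the gatekeeper of T lineage commitment, differed mainly between KOPT-K and T-ALL1. KOPT-K control arrays read 11.94 and 11.70 and those of T-ALL1 10.66 and 10.76, without overlap (T-ALL1 minus KOPT-K -1.11 ± 0.09, limma adjusted p = 1.17e-07). CEM (10.94 and 10.99) was above DND41 (10.51 and 10.49) and HPB-ALL (10.50 and 10.58) by 0.46 and 0.43 ± 0.09. DND41 and HPB-ALL overlapped. The other BCL11B probe sets, 219528_s_at and 224310_s_at, were also lower in T-ALL1 than in KOPT-K (-1.10 and -0.87, limma adjusted p = 6.75e-07 and 0.023). CEM minus DND41 did not pass on either (0.13 and 0.43, limma adjusted p = 0.368 and 0.292), and CEM minus HPB-ALL passed on 219528_s_at (0.31, 0.0262) and not on 224310_s_at (0.69, 0.0718).

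The remaining 3 genes were each highest in CEM within its set of lines. IKZF1, which encodes the zinc finger protein Ikaros, read 11.23 and 11.24 in CEM, 10.63 and 10.54 in DND41 and 10.14 and 10.12 in HPB-ALL, and each step passed limma's test (CEM minus HPB-ALL 1.11 ± 0.07, adjusted p = 1.32e-08). ETS1, founder of the ETS family, read 11.79 and 11.81 in CEM, above DND41 by 0.79 ± 0.11 and above HPB-ALL by 0.55 ± 0.11, while DND41 and HPB-ALL did not differ past the threshold (-0.24 ± 0.11, limma adjusted p = 0.09). SATB1, which folds chromatin in thymocytes, read 11.35 and 11.32 in CEM and exceeded DND41 and HPB-ALL by 0.53 ± 0.09 and 0.78 ± 0.09.

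Of the other IKZF1 probe sets, 205039_s_at and 205038_at passed in the same direction in all 4 comparisons, 227344_at in 3 and 1565818_s_at in T-ALL1 minus KOPT-K alone, while 1565817_at passed in none.

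T-ALL1 lay below KOPT-K for IKZF1 (-0.58 ± 0.07) and ETS1 (-0.74 ± 0.11) and above it for SATB1 (0.29 ± 0.09, limma adjusted p = 0.0148). With NBD, SATB1 changed by -0.35 ± 0.09 in T-ALL1 and by 0.10 ± 0.09 in KOPT-K, so this SATB1 order did not hold on the NBD arrays. The ETS1 gap between CEM and the other 2 lines was seen on all 3 ETS1 probe sets (1555355_a_at and 214447_at are the others), at 0.79 to 1.34 against DND41 and 0.55 to 1.17 against HPB-ALL. The second SATB1 probe set, 241365_at, went against the first in 1 comparison: it was lower in DND41 than in HPB-ALL (-0.92 ± 0.16, limma adjusted p = 0.000298), where the representative was higher (0.25 ± 0.09, limma adjusted p = 0.034). On 241365_at CEM minus DND41 passed (1.09 ± 0.16, limma adjusted p = 8.21e-05). CEM minus HPB-ALL (0.17, limma adjusted p = 0.425) and T-ALL1 minus KOPT-K (0.13, limma adjusted p = 0.525) did not.

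**Figure D2:**
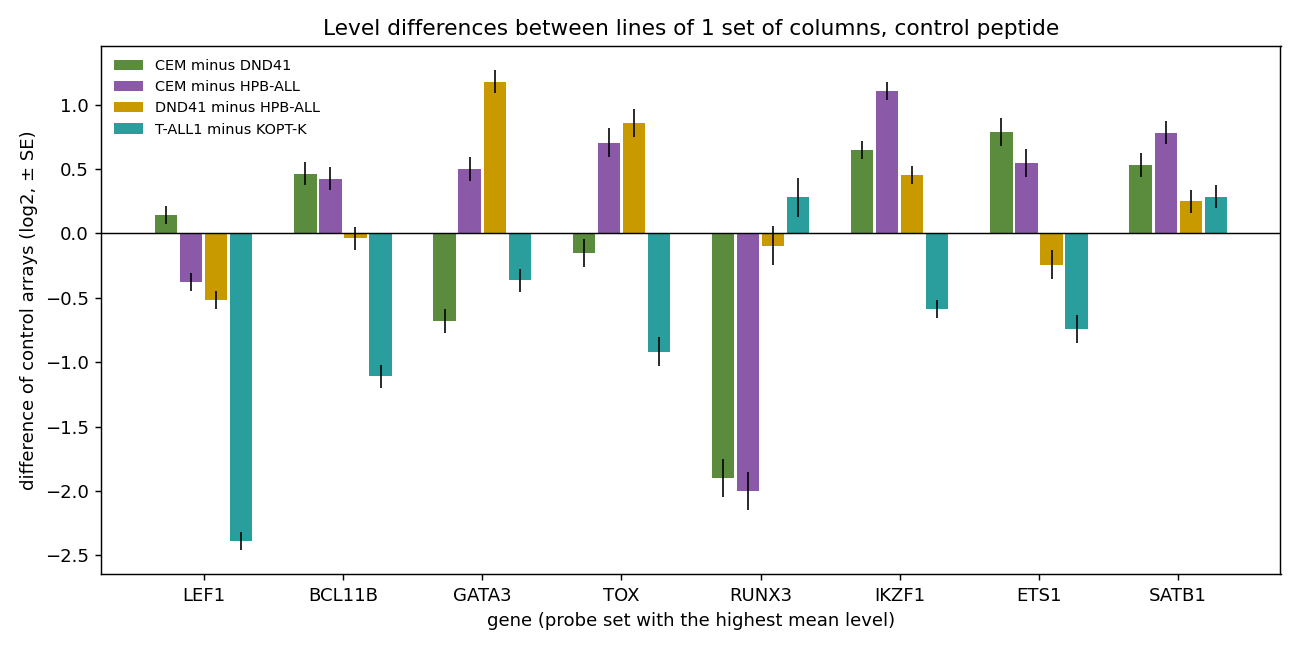
Differences of the control arrays between lines of 1 set (y axis, log2, bars with standard error) for 8 genes (x axis). LEF1 had the lowest bar, T-ALL1 minus KOPT-K at -2.39, and IKZF1 and SATB1 were positive in all 3 comparisons of CEM, DND41 and HPB-ALL.

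Across the 20 arrays, after the mean of each set of arrays was subtracted, GATA3 and TOX moved together most closely among the members (r = 0.88), with LEF1 and BCL11B close to that value (r = 0.88) and BCL11B and ETS1 next (r = 0.84). RUNX3 ran opposite to IKZF1 (r = -0.73) and to SATB1 (r = -0.72). Among all tested genes, the pattern most like LEF1 was that of ACSL5 (r = 0.989), that of GATA3 was TLE5 (0.981), that of TOX was PHF6 (0.983) and that of IKZF1 was CD84 (0.98). For BCL11B it was ADAMTS1 (0.977), for RUNX3 GALNS (0.971), for ETS1 SLC16A7 (0.969) and for SATB1 TRO (0.958). These are descriptions, since the 20 arrays come from 5 lines and the differences between lines make up most of each pattern.

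The next question was whether the factors change with the NBD peptide. Whether NF-kB was blocked in each line was not assessed here. On average over the 5 lines, LEF1 and IKZF1 fell and no member rose. On their representatives, LEF1 fell by 12.4% and IKZF1 by 9.03%. The other LEF1 probe sets, 210948_s_at and 221557_s_at, averaged 0.02 and -0.01 on the log2 scale and did not pass. The other 6 genes, BCL11B, GATA3, TOX, RUNX3, ETS1 and SATB1, had average differences of -0.12 to 0.01 on the log2 scale and did not pass the test. Of all 26260 probe sets, 6.13% passed in either direction, 2.11% higher and 4.02% lower. With 1 probe set per gene these shares were 6.73%, 1.65% and 5.08%. By probe set, 2 of the 25 member probe sets were lower and 0 higher. The median difference over the 25 was -0.0583, beside -0.00192 over all probe sets (standard deviation 0.117). In bulk RNA, fewer cells with a transcript and less transcript per cell cannot be told apart.

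LEF1 was the member with the clearest fall, and HPB-ALL the line where it was largest. HPB-ALL control arrays read 12.91 and 12.86 and NBD arrays 12.36 and 12.39, so that the groups stood apart by far more than their spread. CEM arrays read 12.52 and 12.50 against 12.27 and 12.35, KOPT-K arrays read 12.31 and 12.40 against 12.28 and 12.23, and T-ALL1 arrays read 9.97 and 9.96 against 9.70 and 9.84. In DND41 the readings were 12.42 and 12.32 with control peptide and 12.42 and 12.43 with NBD. NBD arrays were thus below both control arrays in 4 lines and not in DND41.

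The average LEF1 difference was -0.19 ± 0.03 SE (limma adjusted p = 0.00386, exact permutation of arrays within lines, two-sided p = 0.00309). Within lines, HPB-ALL passed (-0.51 ± 0.07, limma adjusted p = 0.00689), where LEF1 fell by 29.9%, and CEM (-0.20), T-ALL1 (-0.20), KOPT-K (-0.10) and DND41 (0.06), each with an SE of 0.07, did not. In HPB-ALL 0.373% of all probe sets passed, 0.305% lower, and LEF1 was the 1 member that did. A test of whether the LEF1 effect differed between lines gave a limma adjusted p of 0.0726. The average was not called without the HPB-ALL line (-0.11, limma adjusted p = 0.175), nor with the 5 lines as replicates (limma adjusted p = 0.466). The call in HPB-ALL was lost without any 1 of its arrays (0.0604 to 0.0949).

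On its representative, 227346_at, the mean level of IKZF1 was lower with NBD in all 5 lines, with most of the difference in CEM. CEM control arrays read 11.23 and 11.24, and NBD arrays 10.90 and 10.82, with no overlap. In DND41 the 4 arrays read 10.63 and 10.54 against 10.51 and 10.49, in HPB-ALL 10.14 and 10.12 against an NBD mean of 10.01 (SD 0.01), and in KOPT-K 10.71 and 10.58 against 10.57 and 10.56. T-ALL1 arrays overlapped, at 10.05 and 10.08 against 10.01 and 10.07. The average was -0.14 ± 0.03 (limma adjusted p = 0.0206, exact permutation within lines, two-sided p = 0.00103), and CEM alone passed within a line (-0.37 ± 0.07, limma adjusted p = 0.0273), where 0.632% of all probe sets did, 0.419% lower. The actin 3' to 5' difference moved in CEM too, from 1.45 ± 0.0041 (SD, n = 2) with control peptide to 1.76 ± 0.068 with NBD. These arrays did not overlap (1.44 and 1.45 against 1.71 and 1.81), so actin and peptide cannot be told apart within CEM. With actin as a covariate IKZF1 in CEM was at -0.357 (limma adjusted p = 0.0299). The slope of that covariate comes from differences within groups, which were widest on the T-ALL1 control arrays (SD 0.78).

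All 5 effects had the same sign in 12.2% of all probe sets. The other 5 IKZF1 probe sets past the filter had averages of -0.10 to 0.20, none past the threshold. The brightest of them, 205039_s_at, was higher with NBD in DND41 (0.17), KOPT-K (0.02) and T-ALL1 (0.09) and lower in HPB-ALL (-0.06), none past the threshold. In CEM the differences of the 5, none of which passed, were -0.13 on 205039_s_at, -0.34 on 205038_at and 227344_at, -0.29 on 1565818_s_at and 0.50 on 1565817_at, so 1 of the 5 pointed the other way. The IKZF1 average was not called without CEM (-0.08, limma adjusted p = 0.295), without HPB-ALL (-0.14, 0.0831) or with lines as replicates (limma adjusted p = 0.512), and leaving out T-ALL1 NBD replicate 1, DND41 control replicate 1 or HPB-ALL NBD replicate 1 took it to 0.0511 to 0.057. The call in CEM was lost without any 1 of the CEM arrays or of the HPB-ALL NBD arrays (limma adjusted p up to 0.256).

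LEF1 and IKZF1 had a called average, and GATA3 did not, but its first window holds letters of the NF-kB consensus. The stretches just before annotated starts of these genes are shown because the peptide is aimed at the signalling of a DNA-binding factor. They are the 250 bases upstream of a RefSeq start in GRCh38.p14, written 5′ to 3′ on the gene's strand, with motif matches in capitals: TGTGGT for RUNX proteins (ACCACA on the opposite strand), CCGGAAG for ETS proteins, and the NF-kB consensus.
LEF1, chr4:108166302-108166551, minus strand: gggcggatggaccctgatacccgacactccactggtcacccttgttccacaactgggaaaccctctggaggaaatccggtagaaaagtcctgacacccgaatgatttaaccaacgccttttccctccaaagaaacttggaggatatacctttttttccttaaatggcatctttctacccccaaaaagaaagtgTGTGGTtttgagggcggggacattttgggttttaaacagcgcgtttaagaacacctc
IKZF1, second of 3 windows, chr7:50308450-50308699, plus strand: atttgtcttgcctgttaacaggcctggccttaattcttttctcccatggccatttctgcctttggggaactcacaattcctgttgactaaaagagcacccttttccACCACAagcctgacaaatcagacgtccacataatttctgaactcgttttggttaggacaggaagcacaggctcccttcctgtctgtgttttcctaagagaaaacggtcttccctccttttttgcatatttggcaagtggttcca
GATA3, first of 6 windows, chr10:8045083-8045332, plus strand: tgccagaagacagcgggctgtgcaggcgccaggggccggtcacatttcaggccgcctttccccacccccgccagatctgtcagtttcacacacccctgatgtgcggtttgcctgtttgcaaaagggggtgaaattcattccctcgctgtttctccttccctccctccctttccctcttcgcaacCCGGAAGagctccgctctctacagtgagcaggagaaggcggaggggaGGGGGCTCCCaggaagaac

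The LEF1 window holds 1 RUNX match, 57 bases before the start. The IKZF1 window holds 1 RUNX match, 144 bases before the start. Of the IKZF1 windows not shown, the third holds 2 matches of the GATA letters and the first no match. The NF-kB consensus was found neither in the LEF1 window nor in any of the 3 IKZF1 windows. In GATA3 the marked stretch lies 19 bases before the start and matches the degenerate NF-kB consensus on either strand, and an ETS match lies 66 bases before it. RefSeq windows were taken for 8 of the 10 genes, 20 windows in all, none of them of TOX or ETS1. Windows on chromosome 8 were left out for the 10 genes and kept in the wider set below. On either strand, RUNX letters were found in 25% of the 20 windows and in 11% of 35116 RefSeq windows of this length, the NF-kB consensus in 10% and 9.96%, and the ETS letters in 10% and 8.52%. The LEF1 letters CTTTGA were found in 5% and 11.2%, and the GATA letters AGATAA in 5% and 9.17%. A match is a run of letters and not a measured binding site, and the arrays do not show which start was in use.

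The 5 lines differed in how the 8 genes were placed. In HPB-ALL both NBD arrays lay below both control arrays for 8 of the 8 genes, a pattern that 26% of all probe sets had. In CEM this was so for 4 genes (28.6% of all probe sets), in T-ALL1 for 4 (22.2%), in DND41 for 3 (24.8%) and in KOPT-K for 2 (20.4%). Over the 25 member probe sets the count below was 17 in CEM, 16 in HPB-ALL, 10 in T-ALL1, 5 in DND41 and 3 in KOPT-K. CEM and HPB-ALL were thus alike by probe set in the count below, and the gap between them held for the representatives only. In DND41, 10 of the 25 lay above, beside 22.7% of all probe sets. DND41 was the line with most genes above, with both NBD arrays above both control arrays for 5 of the 8 (22.7% of all probe sets), so that none of the 8 overlapped there, as was the case for 47.5% of all probe sets. These 5 were LEF1 (12.42 and 12.43 over 12.42 and 12.32, apart only in later decimals), BCL11B, TOX, ETS1 and SATB1, and none of the 8 passed limma's test in DND41, where 1.2% of all probe sets did. None passed in KOPT-K either (0.83% of all probe sets). At an unadjusted p under 0.05, 1 of the 8 passed in each of these lines, beside 13.4% of all genes in DND41 and 10.8% in KOPT-K. They were BCL11B in DND41 (0.20 ± 0.09, and -0.01 ± 0.10 on 219528_s_at) and GATA3 in KOPT-K (0.21 ± 0.09).

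**Figure D3:**
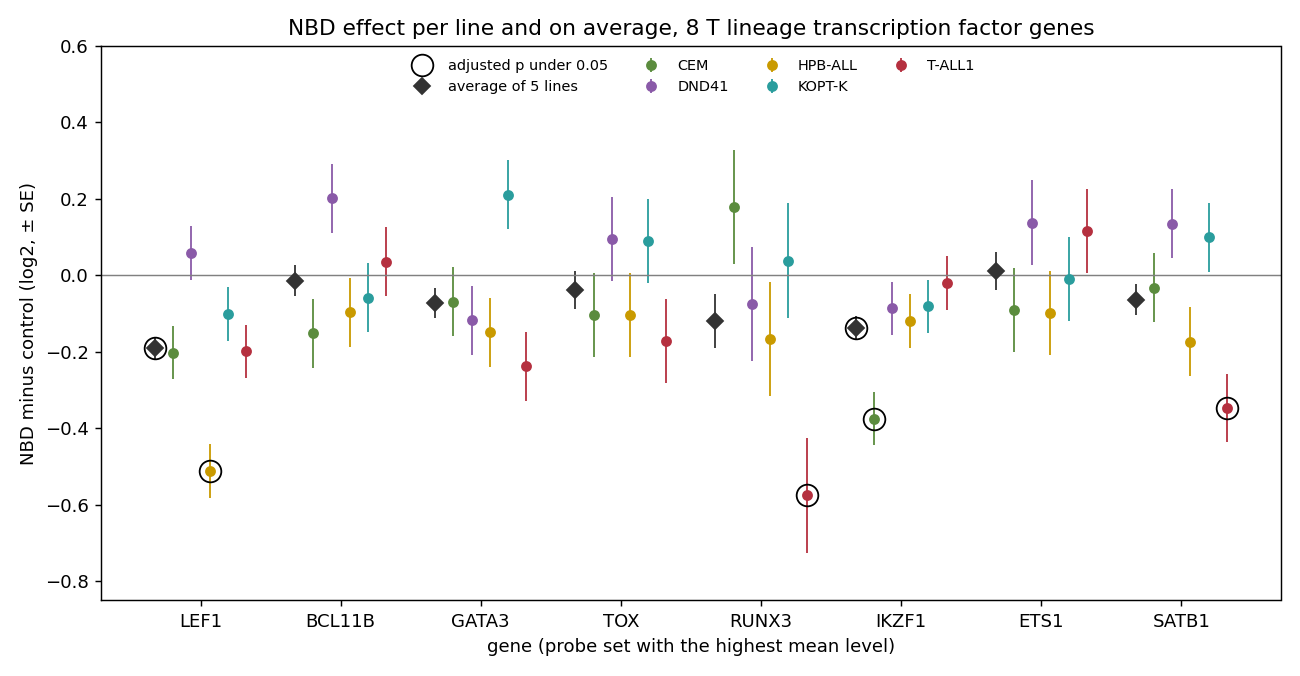
NBD minus control for 8 genes (x axis), as log2 differences with standard errors (y axis), in each line (coloured points) and as the average of the 5 lines (black diamonds). Open rings mark values past the adjusted threshold of 0.05, which are the LEF1 and IKZF1 averages, LEF1 in HPB-ALL, IKZF1 in CEM, and RUNX3 and SATB1 in T-ALL1.

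In T-ALL1, RUNX3 and SATB1 fell, and no representative rose. RUNX3 control arrays read 10.28 and 9.88 and NBD arrays 9.42 and 9.59, and SATB1 control arrays read 11.06 and 10.98 and NBD arrays 10.63 and 10.72. Neither pair of groups overlapped. The differences were -0.58 ± 0.15 for RUNX3 (limma adjusted p = 0.0431) and -0.35 ± 0.09 for SATB1 (limma adjusted p = 0.0379), in a line where 5.68% of all probe sets passed, 2.83% higher and 2.85% lower. The second RUNX3 probe set, 204197_s_at, was at -0.40 ± 0.14 (limma adjusted p = 0.108) and the second SATB1 probe set, 241365_at, at -0.47 ± 0.16 (limma adjusted p = 0.0973). The third RUNX3 probe set, 234928_x_at, had the opposite sign (0.25 ± 0.29, limma adjusted p = 0.654), with overlapping arrays.

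The actin 3' to 5' difference was 2.61 ± 0.78 (SD, n = 2) on the T-ALL1 control arrays and 1.03 ± 0.055 on its NBD arrays. The groups did not overlap, so actin and peptide cannot be told apart in this line. As a covariate, actin has a slope set by differences within groups, which were widest on these control arrays. With that difference as a covariate, RUNX3 was at 0.128 (limma adjusted p = 0.874) and SATB1 at -0.127 (0.814). Without T-ALL1 control replicate 1, RUNX3 was at -0.375 (limma adjusted p = 0.321) and SATB1 at -0.308 (0.191). In each fit that left out 1 of the 20 arrays in turn, RUNX3 passed in 5 and SATB1 in 9, with adjusted p of up to 0.321 and 0.258.

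A lower LEF1 probe set behaved differently from the representative. On 210948_s_at the T-ALL1 control arrays read 4.91 and 5.38 and the NBD arrays 6.03 and 6.30, so NBD was higher (1.02 ± 0.18, limma adjusted p = 0.00858), while on 221558_s_at the T-ALL1 difference was -0.20 ± 0.07. In HPB-ALL 221558_s_at and 210948_s_at were both lower with NBD, 210948_s_at reading 8.17 and 8.49 against 7.63 and 7.50 (-0.76 ± 0.18, limma adjusted p = 0.0975). In CEM its difference was -0.46, in DND41 0.11 and in KOPT-K 0.16, each ± 0.18, and the average was 0.02 ± 0.08.

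The differences of 210948_s_at between the 5 lines passed limma's F-test (adjusted p = 0.0187), as 1.09% of all probe sets did, and 0 of the 8 representatives did. At an unadjusted p under 0.05, 5 of the 8 representatives passed that F-test, as 14.7% of all genes did. In CEM, DND41 and HPB-ALL alone, the average of 210948_s_at was -0.368 (limma adjusted p = 0.0311). With the actin covariate its T-ALL1 difference was 0.162 (limma adjusted p = 0.85), without T-ALL1 control replicate 1 it was 0.78 (0.0728) and without T-ALL1 NBD replicate 2 it was 0.879 (0.0554). The F-test passed without 18 of the 20 arrays, and not without T-ALL1 NBD replicate 2 (adjusted p = 0.0658) or HPB-ALL NBD replicate 2 (0.0534). The third LEF1 probe set, 221557_s_at, was at 0.04 ± 0.18 in T-ALL1, at -0.01 ± 0.18 in HPB-ALL and at -0.01 ± 0.08 on average.

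**Figure D4:**
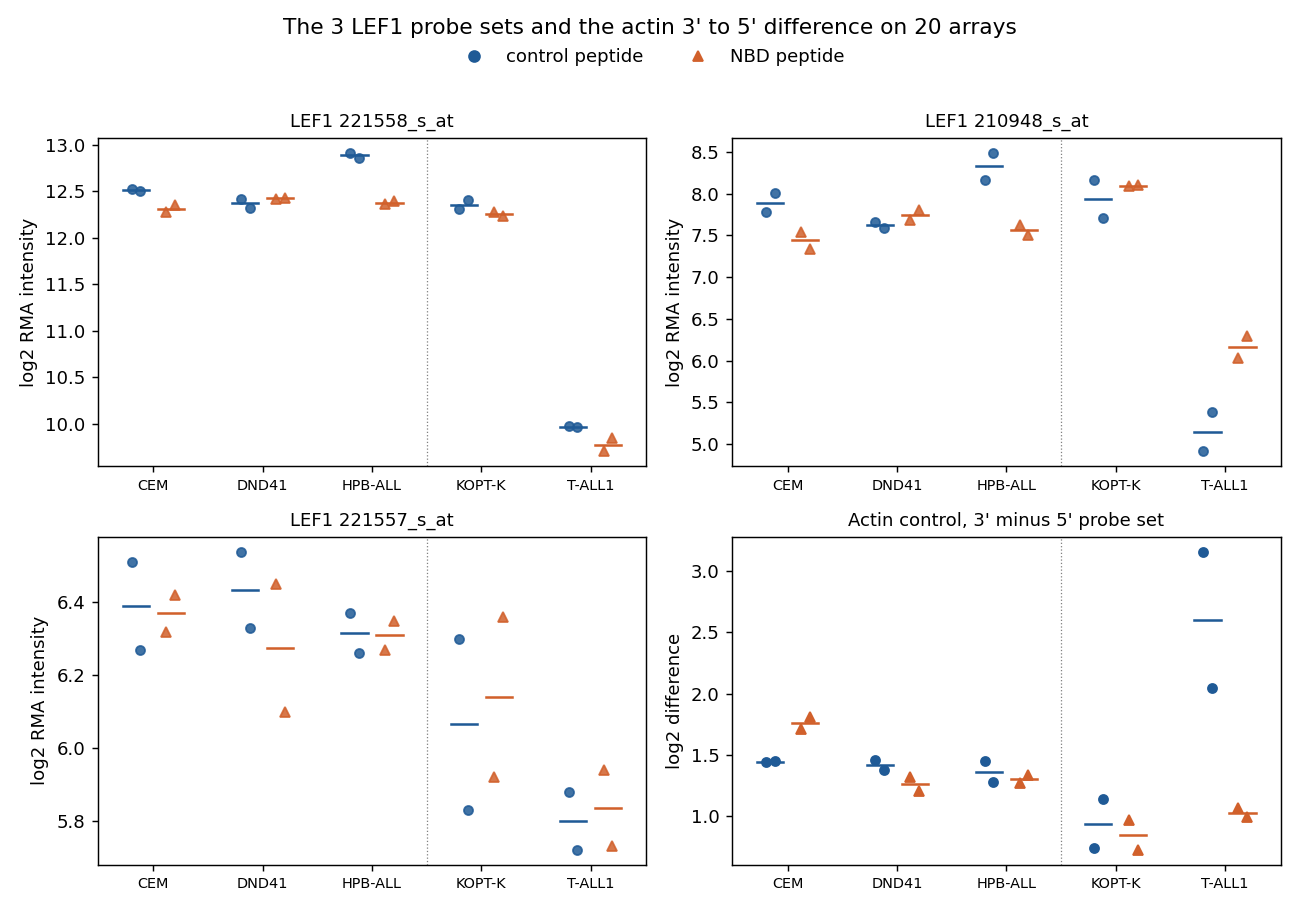
The 3 LEF1 probe sets (log2 RMA intensity) and the actin 3' minus 5' difference (log2) on each array, in the 5 lines. Circles are control arrays, triangles NBD arrays and short lines group means. In T-ALL1, 210948_s_at was higher with NBD while 221558_s_at was lower, and the T-ALL1 control arrays had actin differences of 3.16 and 2.05.

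Probe sets below the filter were read in a fit without it. The 3 of IKZF1 had mean levels of 3.55 to 4.47 and that of SATB1 4.01. One of them passed an NBD test: IKZF1 220704_at in T-ALL1, with group means of 4.90 and 3.68 (-1.22 ± 0.18, limma adjusted p = 0.00412). Its level in the other lines was 3.50 to 4.43 and its differences there -0.01 to 0.32.

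The probe sets of the RUNX1 locus were fitted with the other probe sets of several genes kept in, an addition chosen after the data were seen, and 9 of the 13 passed the filter. RUNX1 encodes a DNA-binding partner of CBFB that is needed for blood stem cells and thymocytes, and what these probe sets read cannot be assigned to RUNX1 alone. On the brightest, 209360_s_at, CEM control arrays read 11.23 and 11.32 and CEM NBD arrays 10.66 and 10.74, without overlap. CEM fell by 32.9% (-0.57 ± 0.08, limma adjusted p = 0.00397), and the average over the 5 lines was -0.13 ± 0.04 (limma adjusted p = 0.0414). The part of the CEM actin difference given above in this fall was not tested.

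The other lines were at 0.10 in DND41, -0.20 in HPB-ALL, -0.01 in KOPT-K and 0.02 in T-ALL1, and the differences between the lines passed limma's F-test (adjusted p = 0.0359). The level of 209360_s_at under control peptide was highest in CEM, above DND41 by 0.78 and above HPB-ALL by 1.42, and lower in T-ALL1 than in KOPT-K (-0.40, limma adjusted p = 0.000669). IKZF1 was also highest in CEM among these 3 lines and lower there with NBD, as given above. The 3 next brightest, 209359_x_at, 208129_x_at and 211180_x_at, were also highest in CEM, by 1.30 to 1.53 over HPB-ALL, and had CEM differences of -0.15, -0.33 and -0.23 with NBD that did not pass. None of the other 8 probe sets passed an NBD test.

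Other regulators of the T lineage were read from a list of 46 genes, of which 42 were tested. On average over the lines 1 rose and 3 fell, beside 1.65% and 5.08% of all genes, so the list held calls at about the rate of all genes. Its median was -0.0178. ELF1, an ETS family factor, rose by 0.27 ± 0.07 on the log2 scale (limma adjusted p = 0.0325). IKZF2, the Ikaros relative Helios (-0.22 ± 0.05, limma adjusted p = 0.0238), GFI1, a transcriptional repressor (-0.21 ± 0.04, 0.0116), and MYB, a progenitor and T-ALL factor (-0.15 ± 0.03, 0.0184), fell. The partners of the members, beta-catenin (CTNNB1, 0.06 ± 0.04) and CBFB (0.03 ± 0.03), did not pass.

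Genes that the members bind or control in T cells formed a second list of 30, of which 28 were tested. On average 0 rose and 9 fell, with a median of -0.121. Over all genes, with 1 probe set per gene, the median was -0.0099 and 5.08% were lower. The list was chosen with earlier results of these data known, so its counts here and within lines are descriptions and not a test. CD3D, part of the CD3 signalling unit of the receptor, fell most on this list (-0.45 ± 0.03, limma adjusted p = 4.43e-06). NKG7, a cytotoxic granule protein (-0.36 ± 0.06, limma adjusted p = 0.0051), and LAT, the adaptor that carries the receptor signal (-0.26 ± 0.03, 0.000555), also fell, as did TRAT1, a receptor-associated adaptor (-0.26 ± 0.06, 0.0196). CD247, LCK, CD28, RAG1 and CXCR4 made up the 9. AXIN2, a target of beta-catenin with LEF1, was at -0.05 ± 0.05 and did not pass, nor did the pre-T cell receptor gene PTCRA (-0.03 ± 0.06) or CD3E (-0.08 ± 0.08).

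Within lines, 1 of the 28 fell in CEM, 4 in DND41, 3 in HPB-ALL, 2 in KOPT-K and 3 in T-ALL1, beside 0.45%, 1.07%, 0.363%, 0.261% and 2.58% of all genes. In DND41, 1 of the 28 rose. Of the 10 T cell markers, all of which but CD7 are on this list too, 5 fell on average. They were CD3D, CD247, CD28 and LCK, already counted above, and CD7 (-0.29 ± 0.04, limma adjusted p = 0.00158). The part of such a shift in the results for LEF1 and IKZF1 was not tested.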

How the data were processed

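The deposited table holds 1 intensity per probe set and array, made by the authors with RMA (robust multi-array average) per the submitters' processing notes, with no version. The values were linear and were taken to log2 with no pseudocount. Names came from the probe table of the platform: 41097 had 1 gene symbol, 1801 several and 11777 none. Those with 1 symbol and a log2 value of at least 5 (the median of all values) on at least 2 arrays were tested, 26260 in all.

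The test was limma's moderated test (version 3.58.1, R 4.3.3, functions lmFit and eBayes, 1 mean per group, 10 residual and 3.43 prior degrees of freedom), with Benjamini-Hochberg adjustment over all probe sets tested and a threshold of 0.05. The average NBD effect weights the 5 lines equally. The number of arrays limits the precision. The procedure was tested on simulated data. The representative of a gene is its probe set with the highest mean, and other probe sets are named where they were called or oppose it. From each list, the 4 largest called changes are named. The members and lists were chosen with earlier results of these data known. TCF7 is not reported here.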

Additional observations from a re-analysis of the deposited data

Results flagged for a closer look

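The effect of the NBD peptide on the LEF1 probe set 210948_s_at differed between the 5 lines (limma F-test, adjusted p = 0.0187). NBD minus control was -0.76 in HPB-ALL, -0.46 in CEM, 0.11 in DND41, 0.16 in KOPT-K and 1.02 in T-ALL1, each with an SE of 0.18. The actin 3' to 5' difference moved in T-ALL1 from 2.61 to 1.03, and with it as a covariate the F-test had an adjusted p of 0.0687.

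The effect on 209360_s_at of the RUNX1 locus, which the probe table also gives to 2 other entries, differed between the lines too (limma F-test, adjusted p = 0.0359). NBD minus control was -0.57 in CEM, -0.20 in HPB-ALL, -0.01 in KOPT-K, 0.02 in T-ALL1 and 0.10 in DND41.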

How the results depend on the processing

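Counts are of the 8 representatives. The average effect (2 called) gave 1 with no filter or without CEM, 0 without HPB-ALL, with lines as replicates or from the KOPT-K and T-ALL1 arrays alone, and 1 to 2 when single arrays were left out. CEM (1 called) gave 0 with no filter or its arrays alone, HPB-ALL (1 called) 0 with its arrays alone, and both 0 to 1 without single arrays. T-ALL1 (2 called) gave 4 with a trended robust prior, 1 with 1 probe set per gene, 0 with no filter, the actin covariate, its arrays alone or those of T-ALL1 and KOPT-K, and 0 to 3 without single arrays. The F-test between lines (0 called) gave 1 with an intensity of 16 added or 1 probe set per gene, 2 with a trended robust prior, and 0 to 1 without single arrays. DND41 and KOPT-K gave 0 in all settings run.

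LEF1 kept its averaged call without each of the 20 arrays (-0.205 to -0.178). The averaged LEF1 210948_s_at turned to -0.368 in CEM, DND41 and HPB-ALL alone, and RUNX3 in T-ALL1 to 0.128 with the actin covariate. The IKZF1 call in CEM was lost without any CEM array or either HPB-ALL NBD array (adjusted p up to 0.256), and that of LEF1 in HPB-ALL without any HPB-ALL array (up to 0.0949). The number of all probe sets called in T-ALL1, 1492, rose to 6652 without T-ALL1 control replicate 2. TOX in T-ALL1 was then called (-0.379, adjusted p = 0.0102). Of 2932 level comparisons under these settings, 2866 kept direction and call, 28 lost a call, 38 gained one and 0 reversed.

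Equal replicate numbers did not pair the arrays (correlations of -0.366 to 0.212 between same-numbered arrays of a line). With a replicate block, 0 representatives were called on average, in CEM, in HPB-ALL and in T-ALL1, and 422 probe sets on average against 1610.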
